A study of Mus musculus with 4 samples.

Results

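Ring1B was measured at 168 promoters of nuclear genes whose products work in mitochondria, out of 18354 gene names on the arrays. The members were every gene name without a hyphen that matched fixed name patterns. Complex I had 35 names and the assembly gene Ndufaf1, complex II 4, complex III 7, complex IV 17 and ATP synthase (complex V) 16. The mitochondrial ribosome had 43 for the large and 26 for the small subunit, the TIM translocases 12 and the TOM translocase 7. Classes follow the names alone, and whether each product belongs to its complex was not checked. All 168 had enough neighbouring probes to be measured, 84 on each of 2 array designs. Of these names, Cox4nb (now Emc8, a subunit of an endoplasmic reticulum membrane complex) is no mitochondrial protein; it takes its old name from its neighbour Cox4i1 and is counted under the rule.

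Chromatin came from fibroblasts grown from C57BL/6 mouse embryos of day 12.5 and used at passage 2, and was either homozygous for Phc2 L307R (Phc2 L307R/L307R) or wild type. Phc2 is a subunit of Polycomb repressive complex 1 (PRC1) whose SAM domain forms polymers, and Ring1B is the E3 ubiquitin ligase of that complex. Ring1B precipitate (Cy5) was hybridised against input DNA (Cy3) on 4 arrays, 1 per genotype on each design, and the designs shared 0 probes. Each promoter was therefore measured once per genotype, and so there is no spread between cultures and there are no p-values. The labels do not say how many embryos or cultures each sample held, and with no RNA measured here neither the cell type nor the activity of these promoters could be checked.

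Mitochondria take most of their proteins from nuclear genes. The respiratory chain complexes pump protons, ATP synthase uses the gradient, the mitochondrial ribosome translates the few subunits encoded by mitochondrial DNA, and the TOM and TIM translocases bring the nuclear-encoded proteins through the outer and inner membrane. Most of these genes are active in nearly all cells from CpG-rich promoters, many of which carry sites for NRF1, for GABPA of the ETS family or for YY1. PRC1 is best known from repressed developmental genes, whose promoters are CpG-rich too. The comparison asks how much Ring1B was recovered at promoters of the housekeeping kind, and whether that differed in cells with the altered Phc2.

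The 4 promoters that stood among the highest and both members of 2 pairs of isoform genes are shown as sequence, because these are the promoters the levels below turn on. Each line gives the 150 bases before the start site in RefSeq (GRCm38.p6), 5′ to 3′ on the gene's strand, with every CG dinucleotide in capitals. Timm9 lies on the minus strand at chr12:71136676-71136825, Atp5l on the minus strand at chr9:44920743-44920892, Ndufs7 on the plus strand at chr10:80249299-80249448 and Atp5g2 on the minus strand at chr15:102671048-102671197. The other 4 are all on the minus strand, Cox6b1 at chr7:30626115-30626264, Cox6b2 at chr7:4753095-4753244, Cox8a at chr19:7217617-7217766 and Cox8b at chr7:140900447-140900596.
Timm9: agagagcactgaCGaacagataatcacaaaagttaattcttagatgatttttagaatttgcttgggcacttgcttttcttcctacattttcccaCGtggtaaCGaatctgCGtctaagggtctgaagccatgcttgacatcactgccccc
Atp5l: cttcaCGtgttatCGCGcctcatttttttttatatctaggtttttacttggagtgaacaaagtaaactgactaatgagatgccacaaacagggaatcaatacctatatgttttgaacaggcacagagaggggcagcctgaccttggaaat
Ndufs7: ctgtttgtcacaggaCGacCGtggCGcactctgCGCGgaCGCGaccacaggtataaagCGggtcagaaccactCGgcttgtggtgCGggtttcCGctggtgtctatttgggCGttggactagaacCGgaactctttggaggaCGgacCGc
Atp5g2: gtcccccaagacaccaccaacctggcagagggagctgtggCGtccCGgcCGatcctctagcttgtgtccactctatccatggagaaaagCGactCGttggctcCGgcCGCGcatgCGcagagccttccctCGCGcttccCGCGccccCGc
Cox6b1: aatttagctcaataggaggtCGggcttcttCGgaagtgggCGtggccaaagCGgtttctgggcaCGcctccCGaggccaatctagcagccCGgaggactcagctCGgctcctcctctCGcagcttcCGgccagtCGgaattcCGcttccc
Cox6b2: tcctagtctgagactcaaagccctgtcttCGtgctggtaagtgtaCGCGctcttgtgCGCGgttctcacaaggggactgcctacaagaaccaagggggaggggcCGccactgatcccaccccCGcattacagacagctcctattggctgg
Cox8a: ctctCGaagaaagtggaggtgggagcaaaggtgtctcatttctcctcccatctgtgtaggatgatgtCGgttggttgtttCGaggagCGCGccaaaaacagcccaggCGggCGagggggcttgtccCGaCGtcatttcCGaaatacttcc
Cox8b: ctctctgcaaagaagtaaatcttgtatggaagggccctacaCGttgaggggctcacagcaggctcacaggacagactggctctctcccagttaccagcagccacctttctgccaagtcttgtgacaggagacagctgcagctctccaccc
The stretches of Timm9 and Atp5l held 4 and 3 CG dinucleotides at a GC content of 42.7% and 40.0%. Those of Ndufs7 and Atp5g2 held 15 and 14 at 60.0% and 66.7%, and that of Atp5g2 also held a match to the NRF1 motif. Among the isoforms, Cox6b2 held 7 against 12 in Cox6b1, and Cox8b held 1 against 10 in Cox8a. No source used here names the build of the probe positions, so the windows measured below were not placed on these sequences.

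Levels are log2 ratios of precipitate over input, centred on the median of each array, and each promoter is given by its 3 neighbouring probes with the highest mean over both genotypes. A promoter is called bound where that window averaged at least 1, and the error given is the SD over the 3 probes of the window, not over cultures. The precipitate signal was well above background at 97.9% to 99.7% of all probes on the 4 arrays, whereas the input signal was so at 75.0% and 76.3% on the Phc2 L307R arrays and at 85.7% and 86.7% on the wild-type arrays. No scan day was shared between the genotypes, so an effect of the day and an effect of genotype cannot be told apart. The wild-type values exist in 2 deposited versions that correlated at only 0.854 and 0.891 on the 2 designs, and the scanner version is used unless the value table is named.

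Ring1B at these promoters was low, close to the middle of all promoters. The median member stood at 0.82 in Phc2 L307R and 1.03 in wild type, and the median of all 17649 measured promoters at 0.80 in Phc2 L307R and 0.90 in wild type. Members ranged between -0.17 and 2.60 in Phc2 L307R and between -0.10 and 2.49 in wild type. None reached 3 in either genotype, where 1.58% of all promoters did in wild type, and 4 in Phc2 L307R and 6 in wild type reached 2, where 8.22% of all promoters did in wild type. By contrast, 10 of 10 promoters of LIM homeobox genes, developmental regulators taken as an example of Polycomb targets, were bound, with medians of 3.96 in Phc2 L307R and 4.24 in wild type. Promoters of 838 olfactory receptor genes had medians of 0.50 in Phc2 L307R and 0.13 in wild type.

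In Phc2 L307R 56 of the 168 promoters (33.3%) were bound, where 39.3% of all promoters were. In wild type 87 (51.8%) were bound, where 45.4% of all promoters were. The members thus stood below the background share in Phc2 L307R and above it in wild type, but neither share is far from it. The 63 members whose promoter also has a name shared with another gene had 12.7% bound in Phc2 L307R and 39.7% in wild type. The other 105 had 45.7% in Phc2 L307R and 59.0% in wild type, above the background share in both genotypes. Of all 168 members, 49 were bound in both genotypes, 7 in Phc2 L307R alone, 38 in wild type alone and 74 in neither. In wild type 60 of the 168 windows lay within 0.25 of the cut-off, so many of these calls turn on small differences. Against cytosolic ribosomal protein genes, another large housekeeping class, the members were lower: 52 of those 78 promoters (66.7%) were bound in Phc2 L307R and 61 (78.2%) in wild type, with medians of 1.26 in Phc2 L307R and 1.23 in wild type.

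**Figure D1:**
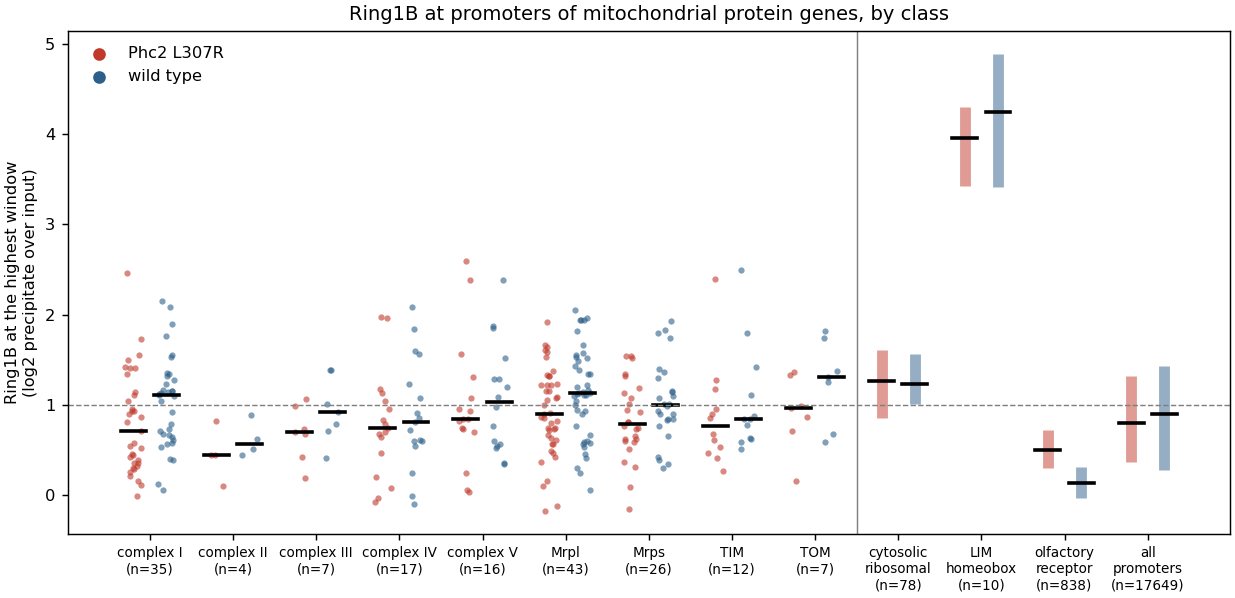
Ring1B at the highest window of each promoter, as the log2 ratio of precipitate over input, with 1 point per gene on the left for the classes of mitochondrial protein genes and the quartile range of 4 other groups on the right. Red (left in each pair) is Phc2 L307R, blue (right) wild type, black lines are medians and the dashed line is the cut-off of 1; Ndufaf1 is not drawn. The class medians lie between 0.45 and 0.97 in Phc2 L307R and between 0.57 and 1.31 in wild type, far below the LIM homeobox genes.

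The classes overlapped widely. In complex I, which takes electrons from NADH, 11 of 35 promoters were bound in Phc2 L307R and 20 in wild type. Ndufs7, an iron-sulfur subunit near the quinone site, stood highest at 2.46 ± 0.33 in Phc2 L307R and 2.15 ± 0.37 in wild type (SD, 3 probes each). Ndufs4, an accessory subunit whose loss causes Leigh syndrome, had 1.497 ± 0.60 in Phc2 L307R and 2.09 ± 0.21 in wild type. Both promoters exceeded the cut-off in both genotypes, and they lay on opposite sides of an equal level. At the low end, Ndufs6 had 0.29 ± 0.57 in Phc2 L307R and 0.06 ± 0.35 in wild type. The assembly factor gene Ndufaf1 was bound in both, at 1.55 ± 0.54 in Phc2 L307R and 1.72 ± 0.36 in wild type.

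Complex II, the succinate dehydrogenase that links the chain to the tricarboxylic acid cycle, had 0 of 4 promoters bound in either genotype. Sdha, the flavoprotein, had 0.45 ± 0.05 in Phc2 L307R and 0.89 ± 0.28 in wild type. Sdhb, the iron-sulfur subunit, had 0.82 ± 0.25 in Phc2 L307R and 0.45 ± 0.21 in wild type. The membrane anchors had 0.10 ± 0.06 (Sdhc) and 0.45 ± 0.43 (Sdhd) in Phc2 L307R, against 0.52 ± 0.35 (Sdhc) and 0.63 ± 0.50 (Sdhd) in wild type. With 4 promoters, an absence of bound ones says little about the class.

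In complex III, the cytochrome c reductase, 1 of 7 promoters was bound in Phc2 L307R (Uqcrb, 1.07 ± 0.18, against 0.92 ± 0.11 in wild type) and 3 others in wild type. These were Uqcrfs1, the Rieske iron-sulfur protein, with 0.73 ± 0.47 in Phc2 L307R and 1.39 ± 0.35 in wild type, the core protein gene Uqcrc2 with 0.99 ± 0.34 in Phc2 L307R and 1.38 ± 0.29 in wild type, and Uqcrc1 with 0.42 ± 0.43 in Phc2 L307R and 1.01 ± 0.27 in wild type. No complex III promoter was bound in both. In complex IV, cytochrome c oxidase, 5 of 17 were bound in Phc2 L307R and 6 in wild type. Cox5a led with 1.97 ± 0.58 in Phc2 L307R and 2.08 ± 0.59 in wild type, and Cox8c was lowest in wild type, with 0.08 ± 0.21 in Phc2 L307R and -0.10 ± 0.14 in wild type.

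ATP synthase genes included the highest member in Phc2 L307R. Atp5l, which encodes subunit g of the membrane part, had probe values of 2.71, 2.51 and 2.58 in Phc2 L307R and of 2.48, 2.08 and 2.60 in wild type. Its window means of 2.60 ± 0.10 in Phc2 L307R and 2.39 ± 0.27 in wild type placed it above 97.4% of all promoters in Phc2 L307R and 96.2% in wild type. Atp5g2, 1 of the genes for the rotor's subunit c, had 2.38 ± 0.50 in Phc2 L307R and 1.88 ± 0.35 in wild type. The lowest of the class by the mean of both genotypes was Atp5f1, with 0.06 ± 0.25 in Phc2 L307R and 0.36 ± 0.70 in wild type. Of the 16 promoters 5 were bound in Phc2 L307R and 8 in wild type, so the class spans nearly the whole range of the members.

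The mitochondrial ribosome gave the largest groups. Of the 43 large-subunit promoters 19 (44.2%) were bound in Phc2 L307R and 27 (62.8%) in wild type, and of the 26 small-subunit promoters 9 in Phc2 L307R and 13 in wild type. Mrpl11 stood highest among the large-subunit genes by the mean of both genotypes, with 1.92 ± 0.65 in Phc2 L307R and 1.94 ± 0.29 in wild type. Mrps23 stood highest among the small-subunit genes by the same measure, with 1.54 ± 0.64 in Phc2 L307R and 1.83 ± 0.35 in wild type. Mrpl32 had -0.12 ± 0.99 in Phc2 L307R and 0.06 ± 0.55 in wild type, and Mrps12 had -0.16 ± 0.64 in Phc2 L307R and 0.30 ± 0.76 in wild type. The median large-subunit promoter, at 0.90 in Phc2 L307R and 1.13 in wild type, remained below that of the cytosolic ribosome in both genotypes.

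Among the import genes, 3 of 12 TIM promoters were bound in Phc2 L307R and 4 in wild type, and 2 of 7 TOM promoters in Phc2 L307R and 5 in wild type. Timm9, a chaperone of the intermembrane space that guides hydrophobic proteins, was the highest member in wild type, with probe values of 1.40, 2.54 and 3.24 in Phc2 L307R and of 1.72, 2.74 and 3.01 in wild type. The 3 probes climbed along the window in both genotypes, and the means were 2.39 ± 0.93 in Phc2 L307R and 2.49 ± 0.68 in wild type. These ratios rest on a weak signal, as 0 of the 3 probes were well above background in both channels in either genotype. The log2 input signal at Timm9 was 8.545 in Phc2 L307R and 8.25 in wild type, where the median member had 9.54 and 9.53. Tomm20, the receptor for presequences on the outer membrane, had 1.37 ± 1.00 in Phc2 L307R and 1.74 ± 0.99 in wild type. Timm8b had 0.27 ± 0.19 in Phc2 L307R and 0.59 ± 0.13 in wild type, and Tomm40l, a homologue of the import channel, 0.15 ± 0.25 in Phc2 L307R and 0.68 ± 0.41 in wild type.

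No member changed by the size rule, which asks, at a promoter bound in either genotype, for a window mean that differs at least 2-fold and for 3 probes that all differ the same way. Of the 94 members bound in either genotype 0 were lower and 0 were higher in Phc2 L307R, where 3.01% and 1.64% of all such promoters were. Of 14 other settings the same rule called 1 member lower with the value tables (Sdhb), 1 with arrays of equal spread (Tomm34) and 2 with windows chosen in wild type alone (Ndufa10 and Timm44). All 168 differences, bound or not, lay between -0.96 and 0.62, and 103 of them were smaller than the SD of the difference over their own probes. At a 1.5-fold rule 14 members were lower (14.9% of 94, where 13.5% of all bound promoters were) and 1 was higher (1.06%, where 6.38% were). The share of lower calls thus lay near the background, and the share of higher calls below it.

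The members with the most negative differences came from several classes. Tomm34, a co-chaperone of protein import, differed by -0.96 ± 0.22, with 0.86 ± 1.02 in Phc2 L307R and 1.82 ± 1.21 in wild type. Its log2 input signal was 9.40 in Phc2 L307R and 8.73 in wild type, and its log2 precipitate signal 10.20 and 10.445. Ndufb11, an accessory subunit of complex I, differed by -0.89 ± 1.01, with 0.26 ± 0.97 in Phc2 L307R and 1.15 ± 0.97 in wild type, so its probes did not share the size of the difference. Mrps28, of the small ribosomal subunit, had probe values of 1.09, 1.22 and 0.91 in Phc2 L307R and of 1.85, 2.14 and 1.81 in wild type. The SD of the Mrps28 difference, -0.86 ± 0.08, lay below the median of 0.38 for such SDs over all members. It describes 3 neighbouring probes on 1 array per genotype, at a member picked for the size of its difference. All 3 probes differed the same way at 69 of the 168 members (41.1%). Around the Mrps28 window an unbroken run of 2 probes reached 1 in Phc2 L307R and of 8 in wild type. Under the value tables the same windows differed by -0.20 (Tomm34), -0.65 (Ndufb11) and -0.51 (Mrps28).

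The other 11 lower members at the 1.5-fold rule were Timm44, which anchors the import motor, Ndufv1, Ndufb3, Ndufa1 and Ndufs4 of complex I, Uqcrfs1, Cox7a2, and Mrps15, Mrps16, Mrpl45 and Mrpl46 of the ribosome. Their differences ran between -0.84 for Timm44 and -0.59 for Ndufs4 with the scanner values. With the value tables they ran between -0.50 for Ndufv1 and 0.00 for Ndufs4, so all 11 were smaller in size. At Timm44 the log2 input signal was 9.45 in Phc2 L307R and 8.69 in wild type, and the log2 precipitate signal 10.34 and 10.38. The 1 higher member was Ndufab1, the mitochondrial acyl carrier protein that is also a complex I subunit, at 1.41 ± 0.61 in Phc2 L307R and 0.79 ± 0.28 in wild type. Its difference was 0.62 ± 0.39 with the scanner values and 0.63 with the value table. The log2 precipitate signal of Ndufab1 was lower in Phc2 L307R, at 9.06 against 9.335 in wild type. Its log2 input signal was 7.715 in Phc2 L307R and 8.65 in wild type, so the higher ratio lay in the input. Of its 3 probes, 0 in Phc2 L307R and 1 in wild type were well above background in both channels.

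**Figure D2:**
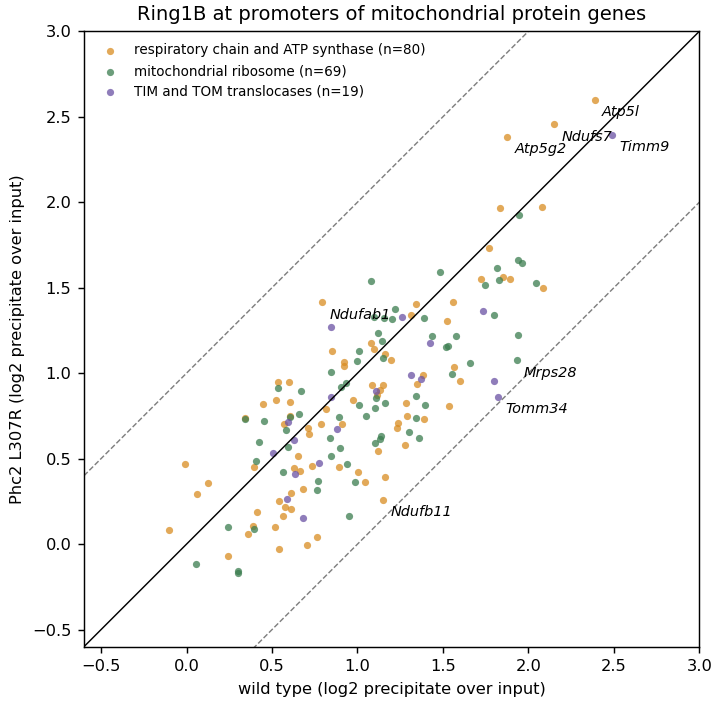
Ring1B at the 168 promoters in Phc2 L307R (vertical axis) and wild type (horizontal axis), both as log2 ratios of precipitate over input, coloured by function. The solid line marks equal levels and the dashed lines a 2-fold difference; all points lie between the dashed lines, and 116 of 168 lie below the solid line.

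Over many promoters the members leaned to lower values in Phc2 L307R. The difference was below 0 at 116 of 168 members (69.0%), where it was at 54.5% of all promoters, and the median was -0.22 over all members and -0.26 over the 94 bound in either genotype, where it was -0.05 and -0.14 over the same kinds of promoters in all. Promoters more like the members lay between: the difference was below 0 at 69 of the 94 bound members (73.4%), against 61.9% of all bound promoters, and at 70.6% of the CpG-rich members, against 62.9% of other CpG-rich promoters. Olfactory receptor promoters, which enter the share over all promoters, were below 0 at 15.3%. By mean level, the difference was below 0 at 64.3% of 70 members from 0.5 to 1.0, against 60.3% of other promoters. From 1.0 to 1.5 it was 66.7% of 48 members, against 64.7%. The gap was wider below 0.5, at 77.8% of 27 members against 41.6%, and from 1.5 to 2.0, at 88.9% of 18 against 57.5%. From 2.0 to 3.0 the share was 40.0% of 5 members, against 51.5%. Each class median was below 0 with the scanner values, between -0.07 in complex IV and -0.37 in the TOM class, but 10 of 139 class medians under the alternatives were 0 or above, among them complex IV and complex V with the value tables. The cytosolic ribosomal protein genes had a median difference of 0.01, with 37 of 78 below 0. Of the 87 members bound in wild type, 49 (56.3%) were also bound in Phc2 L307R, where 74.2% of all promoters bound in wild type were. By name, these were 6 of 25 members with a shared name and 43 of 62 of the others.

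This lean depended on which deposited wild-type values were used. At the same windows and against the wild-type value tables, the median difference over the 168 members was -0.04 and 93 of them were below 0. Over the 105 members without a shared name that median was 0.017, with 49 below 0 and 56 above. Of the 168 members 45 had the opposite sign, and 82 were below 0 in both versions. The wild-type value tables themselves lay at a median of -0.17 from the scanner version of wild type at these promoters, with 123 of 168 below 0, whereas the median over all promoters was -0.02. At the LIM homeobox promoters the wild-type value tables lay above the scanner values, by a median of 1.14. As the Phc2 L307R arrays are the same in both, neither comparison repeats the other, and the difference between the genotypes at these promoters is about as large as that between the 2 versions of wild type.

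**Figure D3:**
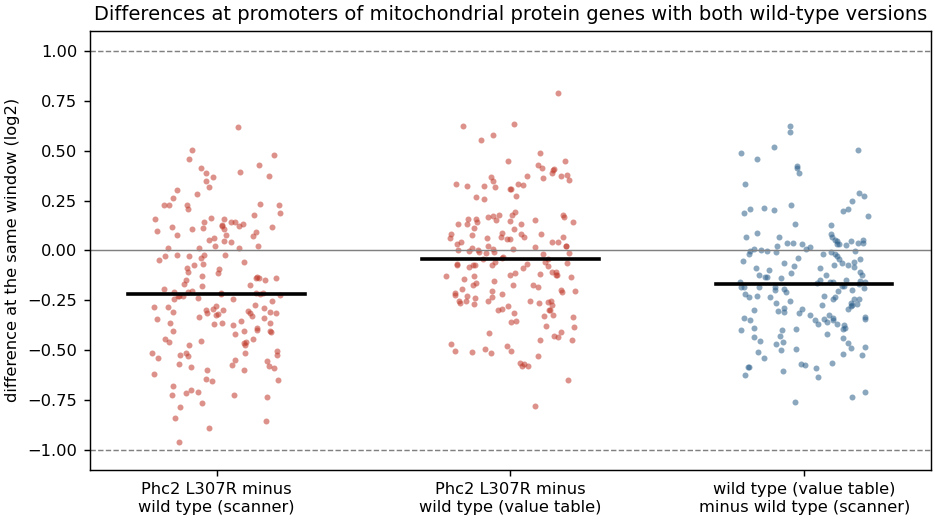
Differences at the same 168 windows (vertical axis, log2), with 1 point per promoter and black lines at the medians. From left, Phc2 L307R minus the wild-type scanner values (median -0.22), Phc2 L307R minus the wild-type value tables (median -0.04), and the wild-type value tables minus the wild-type scanner values (median -0.17); dashed lines mark a 2-fold difference.

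Ring1B covered little of each promoter, as it did at the average promoter. The median member had 7.69% of its probes at 1 or more in Phc2 L307R and 10.4% in wild type, where the median of all promoters was 6.67% in Phc2 L307R and 7.5% in wild type, against 80.8% in Phc2 L307R and 82.9% in wild type at LIM homeobox promoters. In 74 of 168 members (44.0%, where it was 48.1% of all promoters) the middle probe of the window itself was below 1 in both genotypes. Unbroken runs of 4 or more probes at that level around the middle probe occurred at 13 members (7.74%) in Phc2 L307R and 25 (14.9%) in wild type, where they occurred at 13.7% of all promoters in Phc2 L307R and 18.0% in wild type. Of the 4 highest promoters, Timm9 had runs of 7 probes in each genotype, Atp5l 6 in each, Atp5g2 7 in Phc2 L307R and 9 in wild type, and Ndufs7 3 in Phc2 L307R and 4 in wild type. Since the window was chosen for its height, the level close to it is fixed by the choice, but the level farther away is not. Between 500 and 1000 bp from the window's centre the median member had fallen to 0.05 in Phc2 L307R and 0.23 in wild type, and beyond 1000 bp it was below 0 in both. Cytosolic ribosomal promoters had 0.42 in Phc2 L307R and 0.48 in wild type at 500 to 1000 bp, and LIM homeobox promoters 2.85 in Phc2 L307R and 3.41 in wild type.

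The place of the window was shared between the genotypes at most members. When the highest window was chosen in each genotype alone, both choices lay within 500 bp of each other at 138 of 168 members (82.1%), where this held at 63.6% of all promoters and at 38.9% of olfactory receptor promoters. Members had a median of 21 probes, against 26 for all promoters, and an effect of the number of probes was not tested. The share was 88.9% in the 63 members whose promoter also has a name shared with another gene, with a median of 14 probes. In the other 105, with a median of 25 probes, it was 78.1%.

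**Figure D4:**
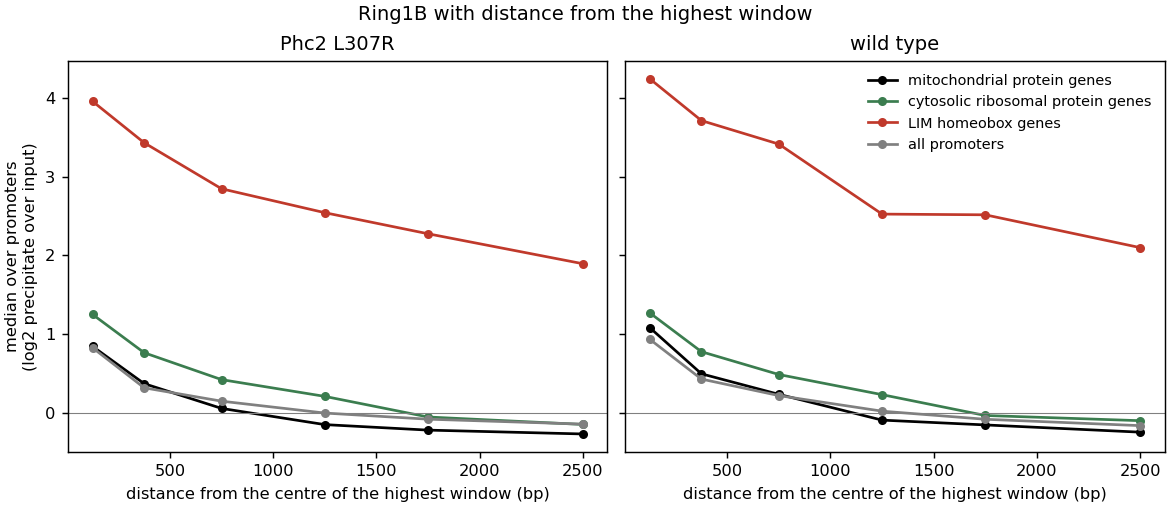
Median log2 ratio of precipitate over input (vertical axis) with distance from the centre of the highest window in either direction (horizontal axis, bp), in Phc2 L307R on the left and wild type on the right. The mitochondrial protein genes (black) drop below 0 beyond 1000 bp, while LIM homeobox genes (red) stay near 2 at the farthest distance; the point nearest the centre is high by the choice of the window.

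Part of the low end of the class lay next to promoters that the name rule left out. The arrays name some probes with 2 gene names joined by a hyphen, and 63 of the 168 members also had such a shared name. Of these, 53 had a RefSeq promoter, and 26 of the 53 (49.1%) had a gene starting in the opposite direction within 1000 bp. Among members without a shared name it was 11 of 89 (12.4%). These 63 had medians of 0.67 in Phc2 L307R and 0.85 in wild type, against 0.95 in Phc2 L307R and 1.13 in wild type for the other 105. Of the 10 lowest members in wild type 8 had a shared name, and of the 20 highest 1 had. In members with a shared name the highest window lay at a median of 8.14% along the probed stretch, near its edge, against 61.4% in the others. They also had fewer probes, a median of 14 against 25.

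For 37 of these 63 members the probes under the shared name could be measured as a window of their own. Counted once per member, with 1 of the 36 shared windows serving 2 members, the shared windows had medians of 0.96 in Phc2 L307R and 1.01 in wild type, against 0.67 in Phc2 L307R and 0.90 in wild type at the members' own windows. Mrpl54 had 0.98 in Phc2 L307R and 1.24 in wild type at the window shared with Apba3, against 0.10 in Phc2 L307R and 0.24 in wild type at its own. The shared window of Mrpl18 with Tcp1, a subunit of a cytosolic chaperonin, had 1.56 in Phc2 L307R and 2.15 in wild type. Others went the opposite way, as Mrpl55, with 0.06 in Phc2 L307R and -0.10 in wild type at the window shared with Guk1, against 1.00 in Phc2 L307R and 1.55 in wild type at its own. Of the 36 shared windows 22 were bound in either genotype. By the size rule 0 were lower and 0 higher in Phc2 L307R, where 3.01% and 1.64% of all promoters bound in either genotype were. With 22 windows such a count says little. A low level at a member with a shared name is thus a level at the probes that carry its name alone.

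The promoter sequences set these genes apart from the average promoter more than Ring1B did. For 142 of the 168 members RefSeq's table (GRCm38.p6) held a promoter of 300 bases, running to 50 bases past the start. Of these, 126 (88.7%) had a ratio of observed to expected CpG of at least 0.6, where 55.8% of 12823 promoters in all did, with medians of 0.82 over the members and 0.66 over all. A gene starting in the opposite direction within 1000 bp was found at 37 (26.1%), where it was at 9.48% of all. The NRF1 motif (GCGC, any base, TGCGC) was present on either strand in 29 members (20.4%, where it was in 8.54% of all), the ETS motif CCGGAAGT in 20 (14.1%, where it was in 6.62%) and the YY1 motif (AAGATG followed by GCGGC) in 9 (6.34%, where it was in 1.21%). Together 54 members (38.0%) held at least 1 of the 3, where 15.3% of all promoters did; motifs could overlap one another and were counted separately.

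Set beside promoters of like CpG content, the members were bound less often than the rest in Phc2 L307R, while in wild type neither stood above the other throughout. With a ratio of 0.8 to 1.0, 38.7% of 62 members were bound in Phc2 L307R, against 54.0% of 2967 other promoters, and 48.4% of the members in wild type, against 66.1% of the others. With a ratio of 0.6 to 0.8, 30.0% of 50 members were bound in Phc2 L307R, against 49.5% of the others, and 64.0% of the members in wild type, against 59.0% of the others. With a ratio of 1.0 or more, 50% of 14 members were bound in Phc2 L307R, against 60.5% of the others, and 71.4% of the members in wild type, against 66.3% of the others. The members had fewer probes each than other promoters, a median of 21 against 26 for all promoters, and the level was higher with more probes (Spearman's rho 0.32 in Phc2 L307R and 0.36 in wild type over 168 members, which share arrays and depth of probing). Among CpG-rich promoters with at least 20 probes, a comparison added after seeing the data, 49.3% of 71 members were bound in Phc2 L307R, against 58.7% of 5323 others, and 71.8% of the members in wild type, against 67.8% of the others. Cytosolic ribosomal protein genes with the same features numbered 27, of which 81.5% were bound in Phc2 L307R and 96.3% in wild type. CpG-rich members without a shared name lay closer to the rest in Phc2 L307R. With any number of probes, 49.4% of 77 such members were bound there, against 53.3% of 7029 other promoters. In wild type it was 64.9% against 63.2%. With at least 20 probes, 53.3% of 60 such members were bound in Phc2 L307R and 73.3% in wild type.

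**Figure D5:**
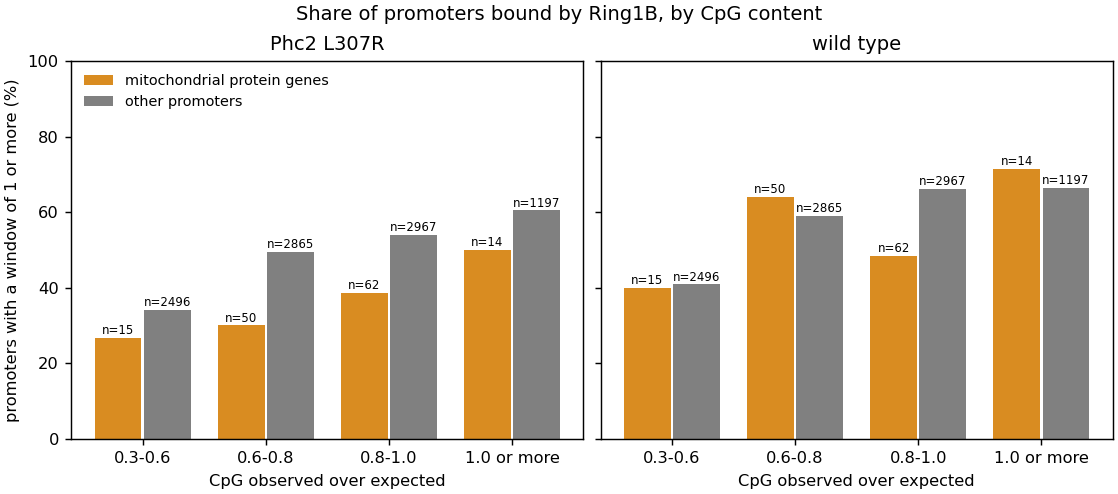
Share of promoters bound by Ring1B (vertical axis, percent with a window of 1 or more) by the ratio of observed to expected CpG in the RefSeq promoter (horizontal axis), in Phc2 L307R on the left and wild type on the right. Orange bars are mitochondrial protein genes, including those with a shared name, and grey bars all other promoters. The number of promoters stands above each bar, and the lowest range, which held 1 member, is not drawn. In Phc2 L307R the orange bar is the lower of each pair, and in wild type neither colour is higher throughout.

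Within the class, CpG content said little about Ring1B. Across the 142 members with a sequence, the correlation of the CpG ratio with the level was 0.11 in Phc2 L307R and 0.03 in wild type (Spearman's rho), whereas over 12823 promoters of all kinds it was 0.41 in Phc2 L307R and 0.50 in wild type. Of the 4 high promoters, Ndufs7 and Timm9 had ratios of 1.03 and 0.95 over the 300 bases, above the members' median, and Atp5g2 and Atp5l had 0.68 and 0.67, below it. Members with the NRF1 motif had medians of 0.93 in Phc2 L307R and 1.01 in wild type, and those without it 0.82 in Phc2 L307R and 1.10 in wild type. Members with the ETS motif had 0.77 in Phc2 L307R and 0.86 in wild type, against 0.84 in Phc2 L307R and 1.11 in wild type without it. The 9 members with the YY1 motif, which included Ndufs7 and Ndufs4, had 0.94 in Phc2 L307R and 1.13 in wild type. A match describes the letters of the window and not a bound factor.

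Several subunits have a second gene that is used mainly in certain tissues, and such genes are no housekeeping promoters. Of 10 pairs listed, 6 were measured, all but 1 of complex IV. Of these 6 restricted genes 0 were bound in either genotype, with medians of 0.25 in Phc2 L307R and 0.59 in wild type. Bound in neither genotype were also 74 of the 168 members and 8652 of all 17649 promoters. The restricted isoform stood below its widely used partner in 6 of 6 pairs in Phc2 L307R and in 4 of 6 in wild type. Cox8a is the partner of both Cox8b and Cox8c, so the pairs are not all separate comparisons. The widest gap was that of the testis isoform Cox6b2, with 0.79 ± 1.00 in Phc2 L307R and 0.81 ± 0.71 in wild type, against 1.96 ± 0.38 in Phc2 L307R and 1.83 ± 0.69 in wild type at Cox6b1. The printed Cox6b2 stretch is also the poorer in CG dinucleotides of that pair.

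The muscle isoform Cox6a2 had 0.65 ± 0.28 in Phc2 L307R and 0.72 ± 0.37 in wild type, against 1.04 ± 0.31 in Phc2 L307R and 1.57 ± 0.70 in wild type at Cox6a1. The muscle isoform Cox8b, with -0.03 ± 0.30 in Phc2 L307R and 0.54 ± 1.41 in wild type, stood below Cox8a, with 0.83 ± 0.88 in Phc2 L307R and 0.60 ± 0.62 in wild type, by less than the SD over the Cox8a probes. Cox8c lay below Cox8a in both genotypes. Cox4i2, an isoform best known from lung, had -0.07 ± 0.21 in Phc2 L307R and 0.24 ± 1.03 in wild type, against 0.47 ± 0.45 in Phc2 L307R and -0.01 ± 0.10 in wild type at Cox4i1, part of whose probes carry a shared name with Cox4nb. Timm8a2 had 0.41 ± 0.53 in Phc2 L307R and 0.64 ± 0.85 in wild type, close to Timm8a1 with 0.61 ± 0.48 in Phc2 L307R and 0.63 ± 0.48 in wild type. The count depended on the processing: the restricted isoform was the lower in 6 of 6 pairs in each genotype with the value tables, in 4 of 6 in Phc2 L307R and 3 of 6 in wild type under normexp background correction, and in 4 of 6 in each genotype with the window highest in wild type.

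Other nuclear genes of the mitochondrion, outside the name patterns, are given as 6 lists. By the size rule 0 of these genes were lower or higher in Phc2 L307R, where 3.01% and 1.64% of all promoters bound in either genotype were. Between 7 and 15 genes of each list were bound in either genotype, so a count of 0 says little about a list. Of all promoters, 39.3% were bound in Phc2 L307R and 45.4% in wild type. The 24 assembly factors had medians of 0.71 in Phc2 L307R and 1.04 in wild type, with 9 bound in Phc2 L307R and 13 in wild type. The 19 genes of the tricarboxylic acid cycle and pyruvate dehydrogenase had 1.01 in Phc2 L307R and 1.15 in wild type, with 10 bound in each. The 14 genes that maintain and transcribe mitochondrial DNA had 0.64 in Phc2 L307R and 1.03 in wild type, with 3 bound in Phc2 L307R and 7 in wild type. The 16 mitochondrial tRNA synthetase genes had 1.00 in Phc2 L307R and 1.26 in wild type, with 8 bound in Phc2 L307R and 13 in wild type. The 11 fusion and fission genes had 1.15 in Phc2 L307R and 1.11 in wild type, with 6 bound in Phc2 L307R and 7 in wild type.

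The 10 genes that regulate mitochondrial biogenesis stood highest of these lists, with medians of 1.49 in Phc2 L307R and 1.51 in wild type and with 8 bound in Phc2 L307R and 9 in wild type. They also had the most probes, a median of 33.5, against medians between 22 and 26 in the other lists. An effect of the number of probes was not tested. Among these 10 genes Ppargc1a, a coactivator induced in brown fat and muscle, had 1.77 ± 0.20 in Phc2 L307R and 2.13 ± 0.72 in wild type. Nrf1 had 1.19 ± 0.49 in Phc2 L307R and 1.40 ± 0.26 in wild type, and Gabpa had 0.65 ± 0.35 in Phc2 L307R and 0.97 ± 0.32 in wild type. Median differences over these 6 lists ran between -0.28 and -0.11 with the scanner values and between -0.21 and 0.16 with the value tables.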

How the data were processed

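Scanner files, as deposited, give the intensity of each spot and the log10 ratio of Cy5 (Ring1B precipitate) over Cy3 (input) for it, quantified with Agilent Feature Extraction 10.7.3.1 as stated per the file headers. Separate deposited value tables are log10 ratios too, judged by comparison with the scanner files. Their medians were -0.0342 and -0.0393 for Phc2 L307R and -0.056 and -0.0615 for wild type on the 2 designs. At 99.9% of Phc2 L307R probes they match the scanner file after subtraction of a constant (tolerance 0.001 plus 0.51%); no source used here gives the origin of the wild-type tables. Precipitate and input DNA were amplified with T7 RNA polymerase, per the labels' protocols, and no dye swap was made.

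From the deposited log10 ratios, log2 ratios were computed here and each array's median was set to 0, without control spots and outlier flags; saturated spots were kept. For each gene name 3 neighbouring probes spanning at most 2000 bp were used, those whose mean over both genotypes was highest. Bound means a window mean of at least 1, and lower or higher means a difference of at least 1 at a bound promoter in which the 3 probes all go the same way. Precision is limited by the number of arrays. The steps were tested on simulated data.

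Gene names are those of the files, and 164 members matched a RefSeq symbol and 4 an older synonym. Probe positions were not converted between builds, and distances were taken from the highest window instead of the start site. The members and lists were chosen with earlier results of these data known. Named genes are the 2 highest and 2 lowest of each class, the 2 largest falls and rises among bound members of each class, called genes, isoform pairs and Cox4nb, of which examples are given and 1 is not reported here; genes past the 1.5-fold rule, shared windows and biogenesis regulators were added as examples after their values were seen.

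Alternatives were normexp background correction (offset 50), loess within arrays, equal spread of arrays, the value tables, only probes well above background, windows of 5 probes, windows chosen by 1 genotype, promoter means of all probes, a cut-off of 1.5, single designs, a 1.5-fold rule and, added after seeing the data, members without a shared name. Software was R 4.3.3 with limma 3.58.1 and Python 3.11.15 with pandas 2.3.3, numpy 2.4.6, scipy 1.17.1 and matplotlib 3.10.9.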

Additional observations from a re-analysis of the deposited data

How the results depend on the processing

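Under all 14 alternatives more members were bound in wild type than in Phc2 L307R, and the median difference over bound members stayed below 0, between -0.36 and -0.13. That median was below the one over all bound promoters in 12 of 14, but not under normexp correction (-0.35 against -0.36) nor with the value tables (-0.13 against -0.19). Of the 14, the 1.5-fold rule cannot change bound calls or levels, so it repeats the main values. With the mean over all probes only 2 members were bound in either genotype. The share bound and the median levels followed the processing. Bound members were 11.3% in Phc2 L307R and 22.0% in wild type under normexp, with medians of 0.45 in Phc2 L307R and 0.65 in wild type. With probes well above background alone they were 19.4% in Phc2 L307R and 34.5% in wild type (medians of 0.46 in Phc2 L307R and 0.80 in wild type), and with windows of 5 probes 21.7% in Phc2 L307R and 33.1% in wild type (medians of 0.63 in Phc2 L307R and 0.79 in wild type). A cut-off of 1.5 left 11.3% in Phc2 L307R and 20.2% in wild type, and the mean over all probes 0.595% in Phc2 L307R and 1.19% in wild type (medians of 0.041 in Phc2 L307R and 0.10 in wild type, median difference -0.068). In the value tables, wild type had 42.3% of members bound (median 0.89), and the median difference was -0.126 over bound and -0.059 over all members. With the window highest in Phc2 L307R the wild-type median was 0.90, and the median differences were -0.14 over bound and -0.047 over all members. Members without a shared name had medians of 0.95 in Phc2 L307R and 1.13 in wild type, with 45.7% bound in Phc2 L307R. The size rule called Tomm34 lower (-1.03) with arrays of equal spread, Sdhb lower (-1.16) with the value tables, and 2 members, Ndufa10 (-1.19) and Timm44 (-1.16), lower with the window highest in wild type, so 1, 1 and 2 members; the 1.5-fold rule called 14 lower and 1 higher. The restricted isoform was the lower in 3 of 3 pairs in Phc2 L307R and 2 in wild type on design 1 alone, and in 2 of 2 in Phc2 L307R and 1 in wild type on design 2 alone, where fewer pairs are held. Of 889 differences of 70 named genes under the alternatives, 145 moved by more than the SD over their probes and 114 had the opposite sign. The 889 include values that could not move. A cut-off of 1.5, the 1.5-fold rule, single designs and the members without a shared name all keep the main windows. The cause of the moves was not tested. No paired analysis was possible because the shared replicate numbers name array designs with 0 probes in common, so no replicate block could be fitted. Depth is set by signal over background, and 41 of 168 members had all 3 probes well above background in both channels on both arrays.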
